A study of Mus musculus with 6 samples.

Results

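The genes described here encode the axon guidance ligands and receptors of the Eph/ephrin, semaphorin/plexin/neuropilin, Slit/Robo and netrin/Dcc/Unc5 families, measured in whole brains of neonatal mice given testosterone propionate (TP, an ester of testosterone) or oil. Members were all probe sets paired with a single gene symbol that was Dcc or a family name continued by its number or letter. The rule took 157 of 45037 probe sets, covering 70 of 18193 genes in 13 families. Gene names that only resemble a family name (Slitrk, Unc5cl, Unc50 and a few others, 14 probe sets) were left out.

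All mice were C57BL/6 (C57BL/6J in the treatment protocol), carried no stated mutation, and were injected intraperitoneally on postnatal day 2. The TP groups received 1 mg of TP in 20 µL of sesame oil and the vehicle groups received 20 µL of the oil alone, and whole brains were taken on postnatal day 6. Every array was hybridised with RNA pooled from 6 mice. Females were represented by 2 TP and 2 vehicle arrays, and males by 1 of each. Whether the replica array of each female group came from a separate pool is not in the labels, so the p-values cover array-to-array spread that may be technical.

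Guidance ligands are secreted into the tissue or held on cell membranes, and growth cones that carry the matching receptor are attracted or repelled by them. Ephrins bind Eph receptor tyrosine kinases and can signal back into the cell that carries them, secreted semaphorins act through neuropilins and plexins, Slits repel through Robo receptors, and netrins attract through Dcc and repel through Unc5 receptors. In the first postnatal week of the mouse these systems take part in the growth of tracts, the sorting of topographic maps and the pruning of early connections. In rodents, testosterone around birth, in part after conversion to oestradiol, shapes sex differences in neural circuits.

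The values are log2 expression levels, so a difference of 1 is a doubling. Array medians lay between 5.69 and 5.74, and member probe sets ranged from 2.92 to 10.80 in their mean over the arrays. A probe set is called dim when that mean is below the 40th percentile of all probe sets (4.98), and 32 of the 157 were dim. A gene is given below by whichever of its probe sets had the highest mean, unless another is named, and only Epha1, Robo3 and Ntn3 were dim by that probe set. Levels of different probe sets are not comparable, so each is set only against itself across arrays. Neuronal marker genes, such as Tubb3 and Snap25, had a mean level of 12.57 to 12.63 on every array. Xist, the RNA of the inactive X chromosome, stood at 12.61 to 12.83 on the female arrays and 5.29 on the male vehicle array, but at 10.45 on the array labelled male TP. The Y-linked gene Eif2s3y was at 9.16 and 9.12 on the male vehicle and male TP arrays and at 2.84 to 3.09 on the female ones. Pituitary markers averaged 6.12 on the array labelled male TP against 4.81 to 5.27 on the others. That array therefore goes in part against its label, and results over both sexes are set beside the female result, which is what remains without it.

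Promoter sequences are shown for 5 genes on which the accounts of the Eph/ephrin and Slit/Robo families turn. Robo1 and Robo2 lie next to each other on chromosome 16 with no coding gene between them, and both had higher values on every TP array. Efna1 and Efna4 lie on chromosome 3 with only Efna3 between them, and both had lower values on every TP array, as had Epha8. Efna3 itself was near vehicle in females by its brighter probe set and lower by its other. No link between position and direction was tested. The 250 bases before the annotated start are given 5′ to 3′ on the gene's strand, from RefSeq on GRCm38.p6, with CG dinucleotides in capitals.
Epha8, chr4:136956817-136957066, minus strand: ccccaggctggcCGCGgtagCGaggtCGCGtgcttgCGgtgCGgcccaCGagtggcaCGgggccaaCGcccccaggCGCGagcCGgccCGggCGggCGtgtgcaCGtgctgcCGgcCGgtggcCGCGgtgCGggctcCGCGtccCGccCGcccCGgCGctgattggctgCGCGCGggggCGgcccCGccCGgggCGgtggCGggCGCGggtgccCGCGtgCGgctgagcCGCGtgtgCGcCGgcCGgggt
Efna1, chr3:89279646-89279895, minus strand: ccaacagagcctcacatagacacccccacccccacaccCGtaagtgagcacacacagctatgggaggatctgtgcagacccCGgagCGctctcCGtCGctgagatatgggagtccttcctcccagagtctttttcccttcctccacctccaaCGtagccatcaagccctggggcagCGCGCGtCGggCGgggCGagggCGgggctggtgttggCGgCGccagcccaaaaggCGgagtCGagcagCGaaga
Efna4, chr3:89338029-89338278, minus strand: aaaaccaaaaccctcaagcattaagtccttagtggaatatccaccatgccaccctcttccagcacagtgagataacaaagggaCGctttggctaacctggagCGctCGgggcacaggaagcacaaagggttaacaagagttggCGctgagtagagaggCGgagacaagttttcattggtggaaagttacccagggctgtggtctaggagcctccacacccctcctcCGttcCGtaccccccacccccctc
Robo1, chr16:72662899-72663148, plus strand: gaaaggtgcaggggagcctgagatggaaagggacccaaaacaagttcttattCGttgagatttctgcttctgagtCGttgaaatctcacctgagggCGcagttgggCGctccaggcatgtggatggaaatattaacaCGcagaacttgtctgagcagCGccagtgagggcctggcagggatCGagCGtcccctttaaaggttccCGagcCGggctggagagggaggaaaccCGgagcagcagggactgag
Robo2, chr16:74411826-74412075, minus strand: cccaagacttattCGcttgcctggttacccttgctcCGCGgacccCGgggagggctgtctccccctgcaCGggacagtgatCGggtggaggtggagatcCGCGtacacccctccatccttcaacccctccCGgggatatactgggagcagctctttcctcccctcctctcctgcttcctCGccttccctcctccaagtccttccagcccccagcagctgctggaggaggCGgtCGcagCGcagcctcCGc
The Robo2 and Efna1 windows are the first by coordinate of 3 and of 2 annotated ones. Both genes are on the minus strand, so these windows belong to the annotated starts furthest downstream. The Epha8 window holds 46 CG dinucleotides in 84.0% G and C, while the Efna4 window holds 7 in 54.4%. The windows of Efna1, Robo2 and Robo1 hold 18, 14 and 11.

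The central comparison asked whether these genes differed between TP and vehicle in the female brain. None of the 157 probe sets passed the threshold of a Benjamini-Hochberg adjusted p under 0.05 in limma's test on the 4 female arrays, and 0.0111% of all probe sets did (5 of 45037). The smallest adjusted p of a member was 0.525. At an unadjusted limma p under 0.05 there were 14 members, 5 with higher and 9 with lower values in TP, which is 8.92% against 8.13% of all probe sets (4% higher, 4.13% lower). The members thus lay near the background of the array at this level. The 2 groups did not overlap in 61 members (26 higher, 35 lower), 38.9% against 38.4% of all probe sets (17.1% higher, 21.3% lower). The median difference was -0.01 in the members and -0.01 over all probe sets, and the median 95% confidence interval of a member reached 0.22 log2 units to either side. Counted by genes, 9 of 70 (12.9%) had an unadjusted p under 0.05, 2 higher and 7 lower, against 5.77% of 18193 genes (1.59% higher, 4.18% lower).

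The 37 ligand genes and the 33 receptor genes were counted separately by the sign of their differences. Among ligands 26 of 37 female differences were negative (70.3%, against 59.2% of all genes), with a median of -0.06. Among receptors 17 were positive and 16 negative, with a median of 0.02. All 6 ligand genes with an unadjusted p under 0.05 were lower in TP, and of the receptors Robo2 and Plxnb3 were higher and Epha8 lower; over all genes such differences were likewise lower more often than higher, 761 against 289. This is a description of the members, and no difference between ligands and receptors was tested.

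**Figure D1:**
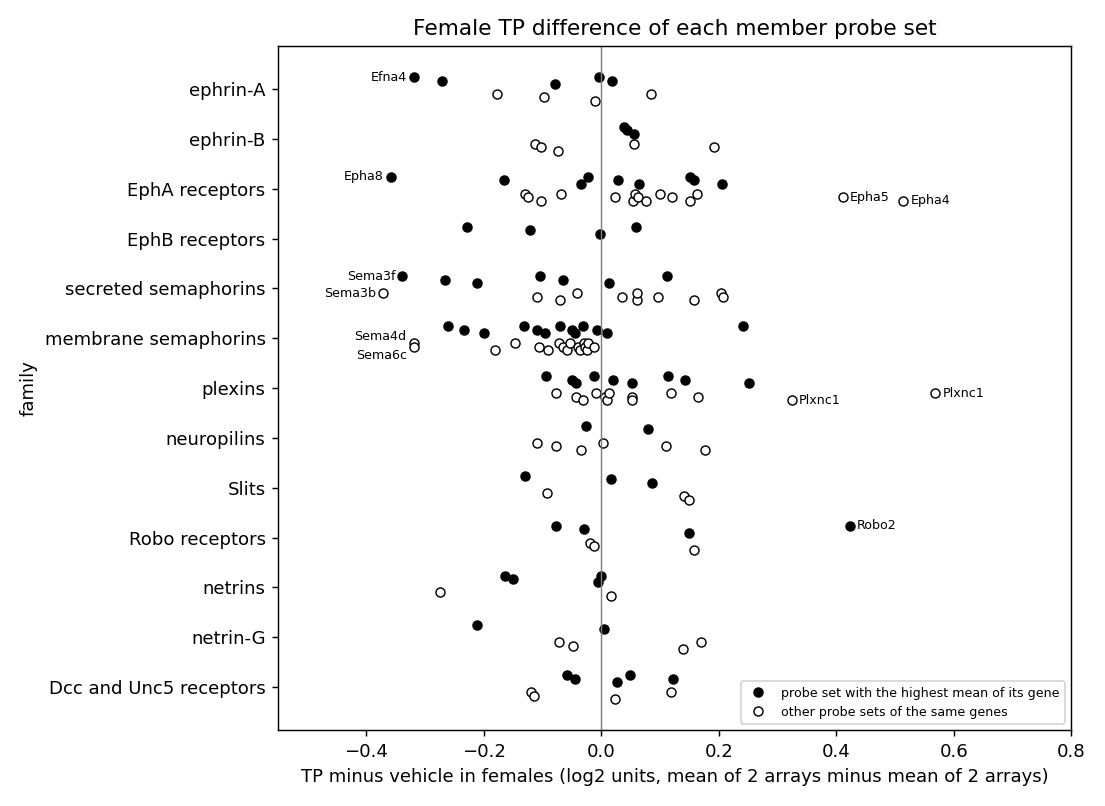
Difference between female TP and female vehicle arrays for each of the 157 member probe sets, by family (x axis, log2 units, mean of 2 arrays minus mean of 2 arrays). Filled points are the probe set with the highest mean of each gene and open points the gene's other probe sets; names mark differences beyond 0.3. Membrane semaphorins lie to the left of 0 in 28 of 30 probe sets, while the largest positive values belong to single probe sets of Plxnc1, Epha4 and Epha5 and to Robo2.

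Markers of a brain region and of vessels also differed between TP and vehicle and are given here because they touch several members below. The mean level of the hindbrain and spinal cord list (Hox genes and the glycine transporter gene Slc6a5, 11 of 13 measured) was 6.04 and 6.08 on the female vehicle arrays, 5.82 and 5.91 on the female TP arrays, 6.04 on male vehicle and 5.62 on male TP. In females 10 of its 11 genes had lower values in TP, with a median of -0.24, and in males likewise 10 of 11, with a median of -0.47. The endothelial list (Cldn5, Pecam1, Cdh5, Tek, Flt1) averaged 7.41 and 7.40, then 7.30 and 7.30, then 7.45 and 7.21 on the same arrays, and all 5 of its genes were lower in TP in each sex. No gene of either list passed the limma test in females. The cerebellar list (7 genes, 1 dim) did not share this direction in females, with 4 positive and 3 negative differences and a median of 0.01. Signs of tissues outside the brain differed more on the female arrays. The bone list (6 of 7 measured, 4 dim) averaged 4.32 and 4.35 in female vehicle and 5.16 and 5.22 in female TP, and 4.42 and 3.93 in male vehicle and male TP. Its gene Ibsp, of bone matrix and dim, rose in females by 1.64 (limma adjusted p = 0.0482). Of the list's genes 5 were higher in female TP, while Sp7, not a dim one, differed by -0.21. The hair and skin list (6 genes, 4 dim) averaged 5.06 and 5.01 in female vehicle, 4.33 and 4.31 in female TP, and 4.54 and 4.40 in males. Its hair keratin-associated gene Krtap19-5, a dim one, fell by 1.21 in females (limma adjusted p = 0.0482). The dim Krtap15 and Krtap16-3 differed by -1.23 and -1.52 in females, but the keratins Krt5, Krt14 and Krt10 by only -0.12, -0.17 and -0.02. Erythroid markers (4 of 5 measured) averaged 5.54 and 5.56, then 5.68 and 5.79 in females, and 5.68 and 5.73 in males. In females 3 of the 4 were higher in TP, and the dim Hba-a1 differed by -0.16. The part of these lists in the members' values was not tested. In whole-brain RNA, fewer cells of a type and less RNA per cell cannot be told apart.

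In the Eph/ephrin system Efna1, Efna4 and Epha8 had lower values in TP, whereas Epha4, Epha5 and Epha7 had higher ones, and none passed the test. Ephrin-A ligands are held on the membrane by a lipid anchor and sort retinal and other topographic maps through EphA receptors.

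Efna4 (ephrin-A4) was at 6.01 and 6.02 on the female vehicle arrays, 5.67 and 5.72 on the female TP arrays, 6.07 on male vehicle and 5.87 on male TP. All 3 TP arrays were below all 3 vehicle arrays. The female difference was -0.32 (SE 0.08), with a 95% interval from -0.51 to -0.13, a 1.25-fold lower level (limma adjusted p = 0.543). Efna1 (ephrin-A1, known also from blood vessels) was at 6.55 and 6.42 in female vehicle, 6.30 and 6.13 in female TP, 6.52 in male vehicle and 6.33 in male TP. Again every TP array was below every vehicle array. The female difference was -0.27 (SE 0.10), and the gene's other probe set gave -0.10. Efna2 differed by -0.08 and Efna5, which shapes cortical and retinal maps, by 0.02. Efna3 showed a gap between probe sets, with -0.00 for the brighter and -0.18 for the other. Over the family, 7 of 9 ephrin-A probe sets were negative in females (77.8%, against 54.0% of all probe sets). In males 9 of 9 were, against 54.3% of all. The 9 probe sets belong to 5 genes.

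Ephrin-B ligands span the membrane and signal in both directions with EphB receptors and Epha4. By their brightest probe sets the 3 genes stayed within 0.06 of vehicle in females: Efnb1 by 0.04, Efnb2 by 0.06 and Efnb3 by 0.04. Efnb1 had the widest scatter between like arrays, with 7.02 and 7.70 in female vehicle, so that its 95% interval ran from -0.46 to 0.55. Efnb2, the ligand of arteries and of many axon tracts, was at 10.11 and 10.13 in female vehicle, 10.17 and 10.18 in female TP, 10.13 in male vehicle and 10.27 in male TP. By this probe set every TP array was above every vehicle array of its sex, by little. The probe sets of Efnb2 differed in sign both in females and over both sexes, as did those of Efnb1. Across the ephrin-B probe sets the female differences ran from -0.11 to 0.19.

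Epha8, an EphA receptor kinase known from the midbrain, was at 6.63 and 6.53 in female vehicle, 6.29 and 6.16 in female TP, 6.75 in male vehicle and 6.26 in male TP. The 3 TP arrays were all below the 3 vehicle arrays. The female difference was -0.36 (SE 0.09), with a 95% interval from -0.58 to -0.14, and the limma adjusted p was 0.543. Over both sexes, in a model that adjusts for sex, it was -0.40 (SE 0.07, limma adjusted p = 0.220). It is the only probe set of its gene, and the hindbrain list was lower on the same arrays.

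Epha7, which limits axon branching and synapse formation, was at 8.38 and 8.40 in female vehicle, 8.53 and 8.66 in female TP, 8.35 in male vehicle and 8.54 in male TP. TP arrays were above vehicle arrays in both sexes by this probe set, a female difference of 0.21 (SE 0.09). Its other 3 probe sets gave -0.10, -0.07 and 0.05, so the direction was not shared. Epha5, a receptor of ephrin-A ligands in forebrain axons, was at 9.71 and 9.85 in female vehicle, 9.96 and 9.91 in female TP, 9.75 in male vehicle and 10.05 in male TP. Groups did not overlap, and the female difference was 0.16 (SE 0.09). Among the remaining EphA genes, Epha4 differed by 0.15 with overlapping arrays, Epha3 by 0.06, Epha2 by 0.03, Epha6 by -0.02, Epha10 by -0.03 and the dim Epha1 by -0.17.

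Of the EphB receptors, Ephb4, known for its place on venous endothelium, was at 5.54 and 5.42 in female vehicle, 5.16 and 5.35 in female TP, 5.39 in male vehicle and 5.24 in male TP. The groups did not overlap, the female difference was -0.23 (SE 0.10), and the endothelial list was lower on the same arrays. Ephb6, which lacks kinase activity, differed by -0.12, Ephb3 by 0.06 and Ephb1 by -0.00.

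Semaphorins were the largest ligand group, with 48 probe sets of 20 genes, and their membrane-bound classes leaned towards lower values in TP while none passed the test. Membrane semaphorins (classes 4 to 7) signal over short distances, mostly through plexins, and several also act in vessels and immune cells. In females 28 of their 30 probe sets were negative (93.3%, against 54.0% of all probe sets), from -0.32 to 0.24 with a median of -0.06. In males 26 of 30 were negative (86.7%, against 54.3% of all probe sets). By genes, 11 of 13 were negative in females, against 59.2% of all genes. The probe sets of 1 gene share its transcripts and are not independent, and most differences were smaller than the interval of 0.22 to either side.

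Sema4c, a ligand of plexin-B2, was at 7.88 and 7.97 in female vehicle, 7.75 and 7.58 in female TP, 7.87 in male vehicle and 7.79 in male TP. The TP arrays lay below the vehicle arrays in both sexes, closely so in males, with a female difference of -0.26 (SE 0.09, limma adjusted p = 0.582). Sema5b, which restrains retinal and cortical axons, was at 6.57 and 6.43, then 6.32 and 6.21 in females, and at 6.50 and 6.22 in males, vehicle first. Every TP array was below every vehicle array (female difference -0.23, SE 0.09), and its other probe set gave -0.11. Of the 2 genes with a positive female difference, Sema4d (0.01) and Sema5a, the second was at 6.88 and 7.18 in female vehicle, 7.28 and 7.26 in female TP, 7.29 in male vehicle and 7.28 in male TP. The female difference of 0.24 (SE 0.11) was 0.09 without the vehicle array at 6.88, male vehicle was as high as the TP arrays, and the gene's other 3 probe sets gave -0.06 to -0.01.

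The remaining membrane semaphorins spanned a narrow range. Sema6b differed by -0.20 and Sema4b by -0.13 in females with overlapping arrays. Sema6c differed by -0.11, Sema4g by -0.09, Sema4f by -0.07 and Sema6d by -0.05. Sema4a, Sema6a, Sema7a and Sema4d, which acts through plexin-B1, lay between -0.05 and 0.01. The largest negative values of the family belonged to dim probe sets of Sema4d and Sema6c, both at -0.32, where the brighter probe sets of the same genes gave 0.01 and -0.11.

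Secreted class 3 semaphorins act at a distance through neuropilin and plexin complexes. In females 5 of their 7 genes were negative, yet their probe sets split evenly, 9 positive and 9 negative. Sema3f, a repellent that acts through neuropilin-2, was at 8.61 and 8.37 in female vehicle, 8.19 and 8.12 in female TP, 8.54 in male vehicle and 8.37 in male TP. Female TP arrays were below all vehicle arrays, while the male TP array equalled the lower female vehicle array to 2 decimals. The female difference was -0.34 (SE 0.10, limma adjusted p = 0.553). This probe set carries the suffix _x_at, which the manufacturer uses where probes may also match other sequences, and the gene's other probe sets gave -0.04 and -0.11.

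Sema3b was at 5.66 and 5.52 in female vehicle, 5.29 and 5.35 in female TP, 5.44 in male vehicle and 5.05 in male TP, with every TP array below every vehicle array. Its female difference was -0.27 (SE 0.09), and its other probe sets, both dim, gave -0.37 and 0.20, so the probe sets disagreed in direction. Sema3g, known from vascular endothelium, differed by -0.21 in females and -0.35 in males, beside the lower endothelial list. Sema3a, the founding collapsin that repels sensory and cortical axons, was at 8.64 and 8.69 in female vehicle, 8.51 and 8.61 in female TP, 8.65 in male vehicle and 8.58 in male TP. Its groups did not overlap, by a difference of -0.10 (SE 0.08) in females, and its dimmer probe sets gave 0.06 and 0.21. Sema3c differed by -0.06, Sema3e by 0.01 and Sema3d by 0.11.

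Plexins and neuropilins, the receptors of these ligands, were split in sign, and none passed the test. In females 14 of 22 plexin probe sets and 4 of 8 neuropilin probe sets were positive. Plxnb3, a receptor of Sema5a found in oligodendrocytes, was at 7.25 and 7.18 in female vehicle, 7.52 and 7.41 in female TP, 7.39 in male vehicle and 7.29 in male TP. The female groups did not overlap (difference 0.25, SE 0.09, limma adjusted p = 0.567), but the male arrays went the other way by -0.11. Its probe set has the suffix _s_at, used where a set matches several transcripts, and its other probe set gave -0.08. Oligodendrocyte lineage markers averaged 9.95 to 10.06 over all arrays.

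Plxna4, which relays Sema3a signals, was at 8.51 and 8.53 in female vehicle, 8.68 and 8.59 in female TP, 8.66 in male vehicle and 8.74 in male TP, a female difference of 0.11 (SE 0.08). Its other probe set went the opposite way in females and over both sexes. Plxna2 differed by 0.14, Plxna1 by 0.05, Plxnc1 by 0.02, Plxnb2 by -0.01, Plxna3 by -0.04, Plxnb1 by -0.05 and Plxnd1 by -0.09, all with overlapping arrays. Nrp1, the neuropilin of Sema3a and of the vascular growth factor VEGF, was at 9.90 and 10.13 in female vehicle and at 10.14 and 10.05 in female TP. Nrp2 was at 9.48 and 9.49 in female vehicle and at 9.54 and 9.37 in female TP. Both overlapped between the groups, with differences of 0.08 (SE 0.10) and -0.03 (SE 0.09).

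In the Slit/Robo system the receptors Robo1 and Robo2 had higher values on all TP arrays, and the Slits themselves differed little. Robo1 and Robo2 are the main Slit receptors of forebrain and commissural axons. Robo2 was at 4.84 and 5.07 in female vehicle, 5.55 and 5.20 in female TP, 4.84 in male vehicle and 5.21 in male TP. All TP arrays were above all vehicle arrays. The female difference was 0.42 (SE 0.14), with a 95% interval from 0.09 to 0.76 and a limma adjusted p of 0.567, and it was 0.25 without the TP array at 5.55. Its only probe set lies just above the limit for dim ones.

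Robo1 was at 9.70 and 9.75 in female vehicle, 9.87 and 9.87 in female TP, 9.74 in male vehicle and 9.99 in male TP. Every TP array was above every vehicle array, and the difference was 0.15 (SE 0.08) in females and 0.18 (SE 0.06, limma adjusted p = 0.336) over both sexes. Its probe sets of lower mean gave -0.02 and 0.16. Robo4, the endothelial member, differed by -0.03 in females, and the dim Robo3, which governs midline crossing, by -0.08.

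Slit2 was at 8.53 and 8.49 in female vehicle, 8.63 and 8.57 in female TP and 8.57 on both male arrays. The female groups did not overlap, but the difference of 0.09 (SE 0.08) was within its interval of -0.11 to 0.28. Slit1 was at 7.98 and 7.84 in female vehicle and 7.93 and 7.92 in female TP. Slit3 was at 5.42 and 5.44, then 5.43 and 5.17. Both overlapped, with differences of 0.02 (SE 0.09) and -0.13 (SE 0.11).

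Among netrins and their receptors, Ntn1 had lower values in TP by the brighter of its 2 probe sets, and its receptor gene Dcc was near vehicle. Ntn1, the attractant of commissural axons, was at 8.35 and 8.37 in female vehicle, 8.14 and 8.26 in female TP, 8.18 in male vehicle and 8.01 in male TP. TP arrays were lower within each sex, with a female difference of -0.16 (SE 0.09, limma adjusted p = 0.674). The gene's other probe set gave 0.02 in females, so the direction was not shared. The hindbrain list, a region where Ntn1 is known to be made by the floor plate, was lower on the same arrays, and its part in this value was not tested. Dcc was at 9.12 and 9.22 in female vehicle, 9.20 and 9.19 in female TP, 9.01 in male vehicle and 9.20 in male TP. The female arrays overlapped, and the difference was 0.03 (SE 0.08), with a 95% interval from -0.17 to 0.23.

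Ntn5 differed by -0.15 in females and Ntn4, a netrin of basement membranes, by -0.00, and the dim Ntn3 by -0.00. The other probe set of Ntn4, a dim one, gave -0.27 in females, with an unadjusted limma p under 0.05. Ntng2, one of the lipid-anchored netrin-G proteins of synapses, was at 5.59 and 5.76 in female vehicle and 5.41 and 5.51 in female TP, a difference of -0.21 (SE 0.10), while Ntng1 differed by 0.00. Unc5c, a repulsive netrin receptor of hindbrain and spinal axons, was at 8.39 and 8.42 in female vehicle, 8.47 and 8.58 in female TP, 8.37 in male vehicle and 8.30 in male TP. Its female difference of 0.12 (SE 0.08, 95% interval from -0.08 to 0.33) had no counterpart in males. The hindbrain list was lower on the female TP arrays, and its part in this value was not tested. Unc5a, Unc5b and Unc5d differed by -0.05, -0.06 and 0.05 in females.

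**Figure D2:**
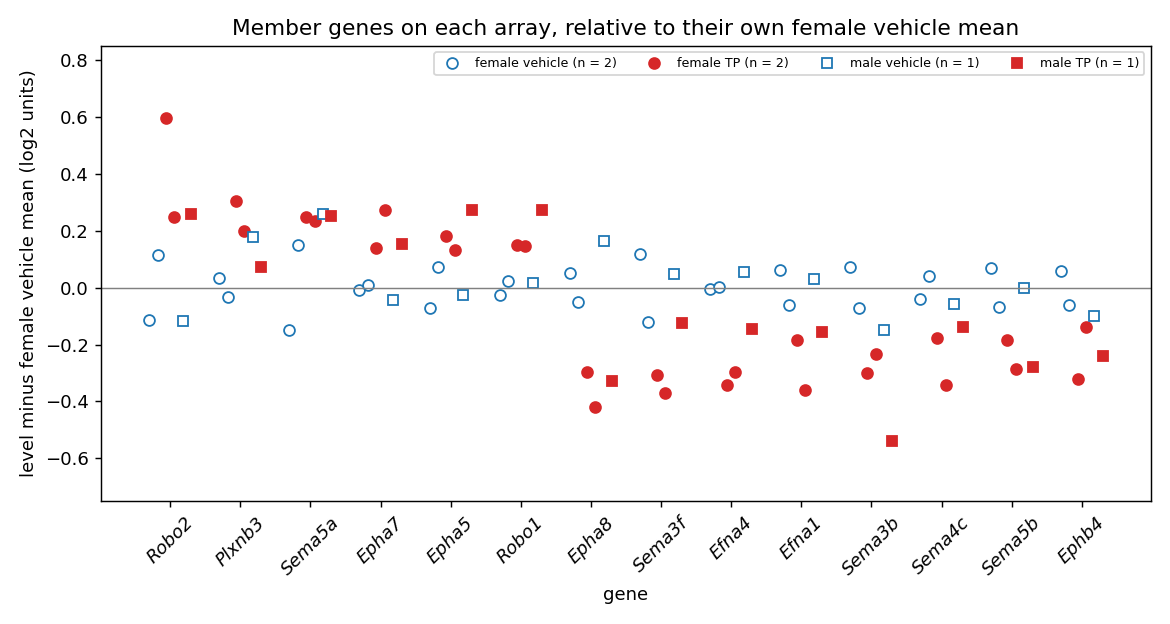
Level of 14 member genes on each of the 6 arrays, relative to the gene's own mean on the 2 female vehicle arrays (y axis, log2 units). Circles are female and squares male arrays, open for vehicle and filled for TP. The 14 have the 6 highest and the 8 lowest female differences of the genes above the dim limit without overlap in females; that choice sets the female points apart, and the male points show Epha8, Robo1 and Robo2 apart in the same direction and Plxnb3 and Sema5a not.

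Several genes were measured by more than 1 probe set, and 47 of the 70 genes had up to 6. Of these, 20 had female differences of both signs. In 3 genes a probe set other than the brightest had an unadjusted limma p under 0.05 both in females and over both sexes, and these were singled out after the values had been seen. For Epha4, which guides motor and cortical axons and binds ephrins of both classes, 1421928_at was at 8.66 and 8.56 in female vehicle, 9.16 and 9.08 in female TP, 8.81 in male vehicle and 9.05 in male TP. The 3 TP arrays were above the 3 vehicle arrays. Its female difference was 0.51 (SE 0.09, 95% interval 0.31 to 0.72), while the gene's other 4 probe sets gave 0.06 to 0.15.

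For the semaphorin-7A receptor gene Plxnc1, 1423214_at was at 5.56 and 5.34 in female vehicle, 6.04 and 6.00 in female TP, 5.66 in male vehicle and 6.04 in male TP. Groups again did not overlap. The female difference was 0.57, and the gene's other probe sets gave -0.03 to 0.32. For Epha5, 1420557_at was at 5.35 and 5.45 in female vehicle, 5.73 and 5.90 in female TP, 5.59 in male vehicle and 5.76 in male TP, a female difference of 0.41 against 0.10 to 0.16 in its other probe sets. With limma, the adjusted p-values in females were 0.525 for the Epha4 and Plxnc1 probe sets and 0.543 for that of Epha5. Over both sexes they were 0.227, 0.191 and 0.262. With a prior variance that follows intensity, limma's adjusted p of the Epha4 probe set was 0.0221 in females and 0.0158 over both sexes, and that of Plxnc1 0.0496 over both sexes. Which part of each transcript these probe sets cover is not analysed here.

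**Figure D3:**
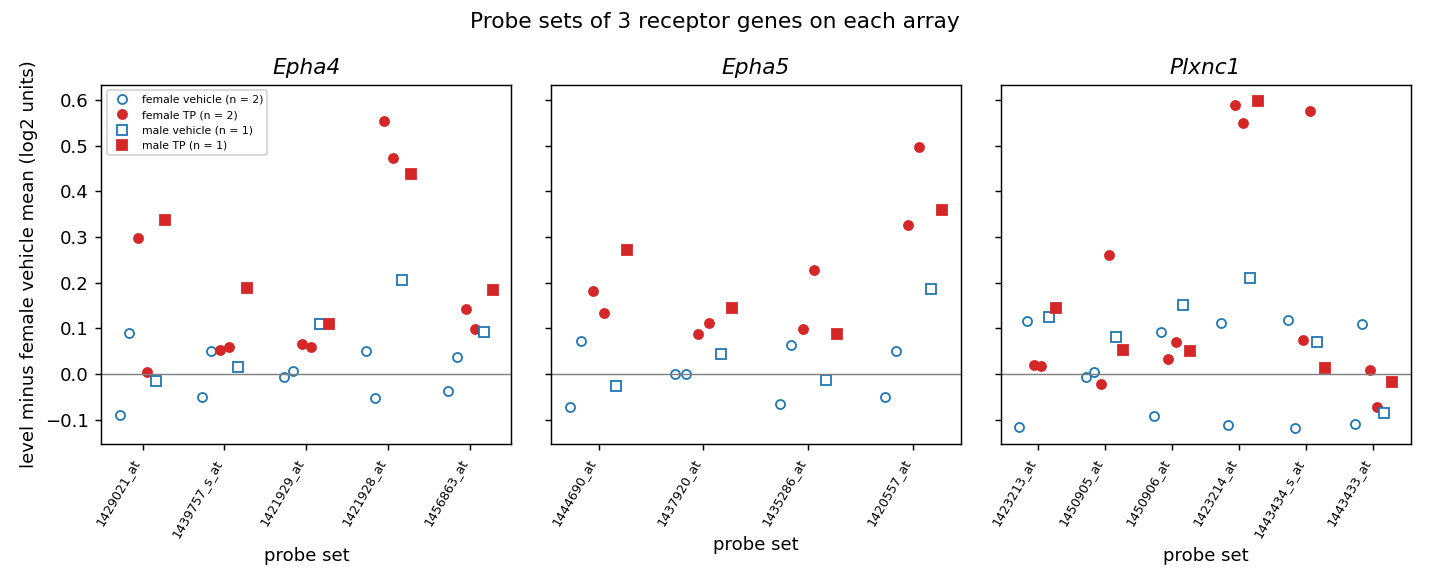
Every probe set of Epha4, Epha5 and Plxnc1 on the 6 arrays, relative to its own mean on the 2 female vehicle arrays (y axis, log2 units). Circles are female and squares male arrays, open for vehicle and filled for TP. One probe set of each gene (1421928_at, 1420557_at and 1423214_at) has both female TP arrays well above vehicle, and the others lie closer to 0.

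Over both sexes, with sex in the model and all 6 arrays, again 0 of 157 members passed limma's test, against 0.00888% of all probe sets, and the smallest adjusted p was 0.191. At an unadjusted p under 0.05 there were 22 members (8 higher, 14 lower), 14.0% against 12.3% of all (5.98% higher, 6.28% lower). The TP and vehicle arrays did not overlap in 34 members (13 higher, 21 lower), 21.7% against 15.2% of all probe sets (6.83% higher, 8.35% lower). Counted by genes, 14 of 70 (20.0%) had an unadjusted p under 0.05, against 9.79% of all genes. This comparison shares its female arrays with the first, and without the array labelled male TP its differences are those of the females. By genes, the largest differences over both sexes among those without overlap were Robo2 at 0.41 (SE 0.11), Epha7 and Epha5 both at 0.20, Robo1 at 0.18 and Efnb2 at 0.09 above vehicle. Below vehicle were Epha8, then Sema3b at -0.31, Sema3f and Efna4 both at -0.28, Unc5b at -0.26, Sema5b at -0.25, Efna1 at -0.24 and Sema4c at -0.20. For Unc5b the female value alone was -0.06, so its place rests on the male pair.

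In males 1 array stood on each side, so differences have no test. Past 0.3 log2 units in either direction lay 23 of 157 members (14.6%; 6 positive, 17 negative), against 11.7% of all probe sets (5.9% positive, 5.81% negative). Unc5b, a netrin receptor known from arterial endothelium, had the largest member difference, from 7.26 in male vehicle to 6.60 in male TP (-0.66), while all 4 female arrays lay between 6.97 and 7.06. Its other probe set gave 0.07. Between the same male arrays the endothelial markers ranged widely, with Cldn5 at -0.02, Tek at -0.15, Flt1 at -0.23, Cdh5 at -0.29 and Pecam1 at -0.54. Robo4, also endothelial, differed by 0.27. Epha8 followed at -0.49, Sema3b at -0.39, Sema3g at -0.35 and Plxnb2 at -0.29. On the positive side were Robo2 at 0.37, Epha4 at 0.35, Epha5 at 0.30 and Robo1 at 0.25.

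Of the other textbook members, male TP minus male vehicle was 0.19 for Dcc, -0.17 for Ntn1, -0.01 for Slit1, 0.00 for Slit2, 0.05 for Slit3, 0.18 for Nrp1, -0.04 for Nrp2 and -0.07 for Sema3a. The female and male differences share no array, but every male difference rests on the array labelled male TP. That array goes in part against its label. The female and male differences had the same sign in 100 of 157 members (63.7%, against 60.9% of all probe sets), 38 positive and 62 negative. Across the 70 genes the female and male differences had a Pearson r of 0.52 and a Spearman rho of 0.47, against 0.27 and 0.29 across all genes. Without dim genes they were 0.53 and 0.48 across 67 member genes, against 0.37 and 0.38 across all, and over probe sets 0.37 and 0.35 in the 157 members, against 0.30 and 0.29. These are correlations across genes or probe sets within 1 set of arrays, and genes are not independent replicates. For membrane semaphorins 24 of 30 probe sets were negative in both sexes (80.0%, against 34.7% of all probe sets). By genes, 9 of 13 were (69.2%, against 40.8% of all genes).

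**Figure D4:**
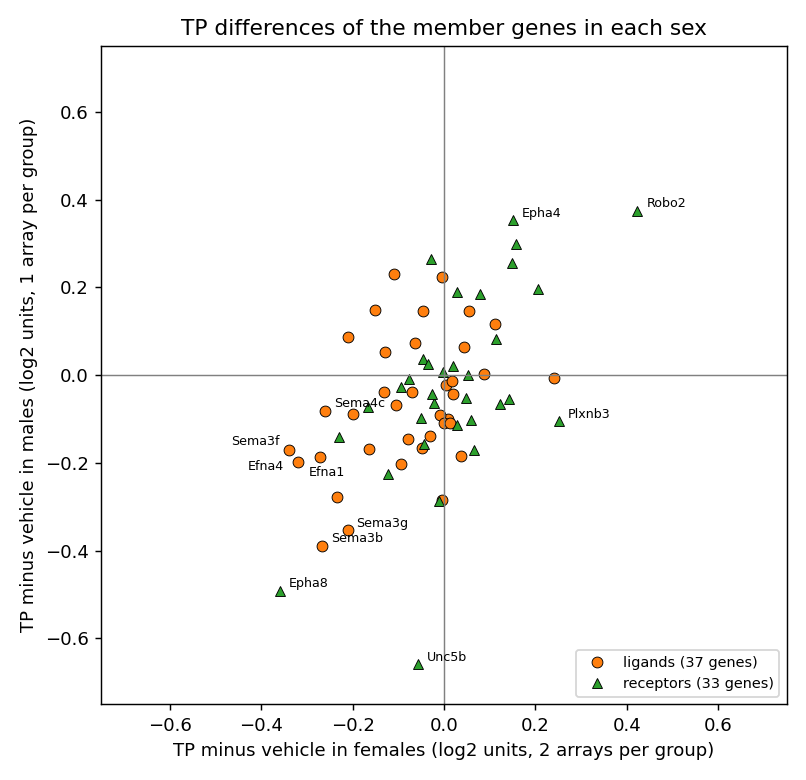
TP difference of each of the 70 member genes in females (x axis, 2 arrays per group) and in males (y axis, 1 array per group), both in log2 units. Circles are the 37 ligand genes and triangles the 33 receptor genes. Epha8 and Sema3b lie low in both sexes and Robo2 high in both, while Unc5b is low in males at a female value of -0.06.

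The difference between the male and the female TP effect was tested in a model with 4 groups, which assumes that the single male arrays vary like the female ones and rests wholly on the array labelled male TP. None of the 157 members passed limma's test (0.0155% of all probe sets did), and 9 had an unadjusted p under 0.05, 5.73% against 4.93%. Unc5b had the largest value among the genes' brightest probe sets, -0.60 (SE 0.14, limma adjusted p = 0.9998). Below 0 there followed Plxnb3 at -0.36, Efna3 at -0.28 and Plxnb2 at -0.27, and above 0 were Sema6c at 0.34, Ntng2 and Ntn5 both at 0.30 and Robo4 at 0.29.

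Between males and females, with treatment in the model, 0 of 157 members passed limma's test, against 0.0222% of all probe sets. At an unadjusted p under 0.05 there were 8 members, 5.10% against 12.1%, and the sexes did not overlap in 23 (14.6% against 19.8%). Plxnd1, a receptor of Sema3e in vessels and axons, was at 8.93 and 8.90 on the male arrays and between 8.66 and 8.85 on the female ones. Its male minus female difference was 0.18 (SE 0.07), and 0.15 without the array labelled male TP. Higher in males too were Plxna4 by 0.13, Efna4 by 0.11 and Unc5a by 0.11, which without that array were 0.14, 0.05 and 0.07. Lower in males were Sema3g at -0.25, Sema3b at -0.21, Ntn1 at -0.18 and Ntn4 at -0.17, which without it were -0.18, -0.15, -0.18 and -0.11. Of these 8 genes, only Plxnd1, Unc5a and Ntn4 had no overlap between the sexes. Cerebellar markers (such as Zic1 and En2) were lower on the male arrays, at 8.46 and 8.54 against 8.72 to 8.81, as were markers of cycling cells, at 7.92 and 7.99 against 8.21 to 8.25. Their part in these differences was not tested.

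The wider pathway was described with a list of 52 co-receptors, cytoplasmic adaptors and cytoskeletal effectors, of which 50 were measured. None passed limma's test in females, 31 differences were positive and 19 negative, and the median was 0.02. An unadjusted p under 0.05 was found in 2 of them, against 5.77% of all genes. These were Rgma, a repulsive ligand of neogenin, and Farp2, a Rac exchange factor that acts below plexin-A. Rgma was at 8.11 and 8.02 in female vehicle, 7.82 and 7.85 in female TP, 8.06 in male vehicle and 7.81 in male TP, a female difference of -0.23 (SE 0.08, limma adjusted p = 0.579). Farp2 differed by -0.23 and Crmp1, a collapsin response mediator, by -0.13. Higher in TP were the netrin-receptor motor Myo10 by 0.15, the adhesion gene Flrt1 by 0.12 and the L1 family gene Nrcam by 0.12, and in males these 3 gave -0.39, -0.17 and -0.01.

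The promoters of the members were searched for the hexamers of hormone receptor sites. RefSeq windows of 300 bases, from 250 before to 50 after the start, were at hand for 60 of the 70 genes (76 windows). The androgen receptor hexamer AGAACA or its reverse TGTTCT was in 8 windows of 5 genes (10.5%, against 19.0% of 32851 windows of all genes). The oestrogen receptor hexamer AGGTCA or TGACCT was in 11 windows of 11 genes (14.5% against 16.3%). The paired forms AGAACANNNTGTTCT and GGTCANNNTGACC, which read the same on both strands, were in 0 member windows, against 0.00913% and 0.07% of all. The genes with the first hexamer were Plxna3, Plxnd1, Sema4d, Sema6b and Sema6d, so none of the 5 promoters printed above was among them. Member windows had a median of 64.0% G and C and 18.5 CG dinucleotides, against 52.7% and 7 in all windows. A match or its absence describes only these letters in these windows.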

How the data were processed

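Arrays were Affymetrix 3′ expression arrays with biotin-labelled RNA, per the labels. The deposited table holds log2 levels of 45101 probe sets for each of 6 arrays, which the authors made with RMA (background correction, normalization between arrays and summary of probes), per the submitters' processing notes. Its version was not given in the sources used here. Precision is set by the small number of arrays. Exactly equal values (tolerance 0) were found at 190 probe sets in the female TP pair and 140 in the female vehicle pair, so neither is one array deposited again.

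Probe sets were named through the platform annotation and RefSeq; 34945 had 1 gene symbol, 932 several and 9160 none, and all 157 members matched RefSeq. After 64 array controls were left out, 45037 probe sets went into lmFit and eBayes of limma 3.58.1 (R 4.3.3, two-sided tests), adjusted by Benjamini-Hochberg over all of them, and called at an adjusted p under 0.05. Every adjusted p is from limma. A count of genes takes each gene's probe set with the highest mean from that fit. Figures used Python 3.11.15 and matplotlib 3.10.9.

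The members and lists were chosen with earlier results of these data known. Genes were named by rule: per direction, up to 8 that were not dim and did not overlap, in females and over both sexes, 5 in males, 4 for the sexes and for the difference between their TP effects, 3 of the pathway list, and a set of textbook members; every other member gene is given by its female difference. The fits were tested on simulated data with changes far larger than any member difference. That checks the calculation, not the power for small differences. Alternatives were 1 probe set per gene, a gene's mean, no dim probe sets, other normalizations, an intensity trend, a replicate block, 4 groups, and leaving out arrays.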

Additional observations from a re-analysis of the deposited data

How the results depend on the processing

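Precision is limited by at most 2 arrays a group, with a median 95% interval of 0.22 to either side in females. The count of members past limma's threshold was 0 in all 4 tests under every setting but 1: with an intensity trend it was 1 in females (Epha4) and 2 over both sexes (Epha4, Plxnc1). Over all probe sets the calls varied more: 5 in females and 4 over both sexes became 37 and 138 with the trend, 13 and 4 with centred arrays (6 higher and 7 lower in females, in place of 4 and 1), 8 and 4 with a repeated quantile normalization, 3 and 0 with a gene's mean, 1 and 1 without dim probe sets, and 0 in females without any 1 female array. For the sexes 10 became 49 with the trend, 3 with 1 probe set per gene and 1 without dim probe sets, and for the difference between TP effects 7 became 12, 2 and 4. Same-numbered female arrays correlated in their deviations by 0.106, but with 2 pairs and no label for a shared batch the numbers do not pair them; with a replicate block 0 members were called in each test, and 2 probe sets in all in females.

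Signs of small differences turned with a gene's mean over its probe sets, where those disagree: Dcc -0.023, Slit1 -0.038 and Sema3a 0.054 in females, Slit1 -0.096 over both sexes and Sema3b 0.027 between the sexes. Leaving out each female array in turn gave ranges across 0 in females for Dcc (-0.024 to 0.079), Slit1 (-0.054 to 0.087), Slit3 (-0.26 to 0.0011), Nrp1 (-0.035 to 0.19) and Nrp2 (-0.11 to 0.060), and over both sexes for Slit1 (-0.037 to 0.044), Slit3 (-0.13 to 0.024) and Nrp2 (-0.083 to 0.016). The causes were not tested. The other named values kept their sign under every setting.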
